A study of Homo sapiens with 4 samples.

Results

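Solute carriers are membrane proteins that move nutrients, ions, metabolites and drugs into and out of cells and organelles, mostly as exchangers, cotransporters or facilitative carriers, and their gene symbols start with SLC or SLCO. Amino acid transporters of this superfamily set the supply of essential amino acids, glutamine and cystine, and several of them, such as SLC7A11 and SLC38A2, are known targets of the transcription factor ATF4 in the response to amino acid shortage. In liver cells other members take up or release bile acids, organic ions, nucleosides, metals and carboxylates. The rows described here were taken from the authors' deposited 2-fold tables by symbol, or by the GENCODE name of the identifier where the symbol was blank. The rule took 24 of the 1409 genes in the HepG2 table and 9 of the 942 genes in the K562 table. Together these were 32 of 2257 distinct genes, because SLC2A13 was in both tables. Of the 24 HepG2 members, 20 were protein-coding transporters, 3 were pseudogenes and 1 had an antisense name. Of the 9 K562 members, 7 were protein-coding, 1 was a pseudogene and 1 had an antisense name.

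HepG2 is a line from a human hepatocellular carcinoma and K562 is a human erythroleukemia line. Both had been stably transfected with plasmids that carried either siRNA against ADAR1, the enzyme that edits adenosine to inosine in double-stranded RNA, or a scrambled siRNA as control, and total RNA of the 4 groups was sequenced to ask how ADAR acts on splicing across the genome. Each group had 1 sample with 2 technical replicates, so the values carry no replicate check, error or p-value, and the deposited tables hold gene-level averages that say nothing of isoforms. The labels do not say whether the transfected cells were clones or pools.

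The targeted gene ADAR, as the authors' average, was 129 in the knockdown and 461 in the control of HepG2, a 3.54-fold drop; in K562 it was 131 and 275, a 2.09-fold drop. Each table holds only genes at or past a 2-fold difference, so the level of an unlisted transporter is unknown and library depth cannot be read. Folds are ratios of the authors' averages after adding 1 to each. The unit of the averages is not named, so folds are read within a gene. Between genes the averages serve for ranges, medians, cutoffs and the choice among repeated rows, in an unknown unit. Of 8 hepatocyte markers none was listed in HepG2, and of 8 erythroid markers none was listed in K562, so the identity of the lines rests on the labels. Of 7 fibroblast markers DCN, LUM and COL3A1 were listed in HepG2, with control averages of 261, 528 and 323. In the knockdown DCN averaged 774, 2.95-fold higher, LUM averaged 1445, 2.73-fold higher, and COL3A1 averaged 34.5, 9.12-fold lower. The erythroid marker HBZ was listed in HepG2 at 34.9 in the knockdown and 16.6 in the control. The part of these markers in the transporter values was not tested. Whether the averages were scaled for depth is not stated, so a difference in depth and a general difference in RNA cannot be told apart.

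Of the 24 members in HepG2, 11 stood higher and 13 stood lower in the knockdown. Over all 1409 listed genes 55.0% were higher and 45.0% were lower. Amino acid transporters and the remaining carriers split differently by count. Of the 9 listed amino acid transporters, 6 were higher and 3 were lower. Of the 11 other protein-coding members, 2 were higher and 9 were lower, while 55.5% of all 899 listed protein-coding genes were higher. SLC22A18AS, set apart for its antisense name, is annotated as protein-coding and was higher. It is counted among the 899 but not among the 11. SLC16A5 and SLC52A3, deposited under other symbols, were also higher and are not among these 11. With them, 10 of the 22 protein-coding carriers listed by identifier were higher and 12 were lower. These counts describe listed genes, and the difference between the sets was not tested. They also rest on the unstated scaling. With knockdown averages multiplied by 1.5, SLC2A13 would be the 1 of the 9 lower carriers still past 2-fold, and with them divided by 1.5, SLC7A11 would be the 1 of the 6 higher amino acid transporters still past it.

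Transporters of amino acids were also listed in HepG2 at a larger share than protein-coding genes in general. Of 56 annotated amino acid and peptide transporters, 9 were listed, or 16.1%, against 4.52% of the 19951 annotated protein-coding genes. Over all 385 annotated protein-coding solute carriers matched by identifier, 22 were listed, or 5.71%. Carriers of mono- and dicarboxylates were listed by identifier at 3 of 18, or 16.7%, with SLC16A5 counted, which was deposited under another symbol. None of the 48 mitochondrial carriers of the SLC25 family and none of the 60 carriers of inorganic ions was listed in HepG2. Among the amino acid carriers were those with the highest and the lowest fold of all members. The highest was SLC7A11 and the lowest were SLC7A8, SLC6A15 and SLC16A10. At 4-fold or more, 3 members were higher and 3 were lower, and 4 of these 6 carry amino acids. Of all listed HepG2 genes, 8.94% were higher by that much and 8.16% were lower.

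**Figure D1:**
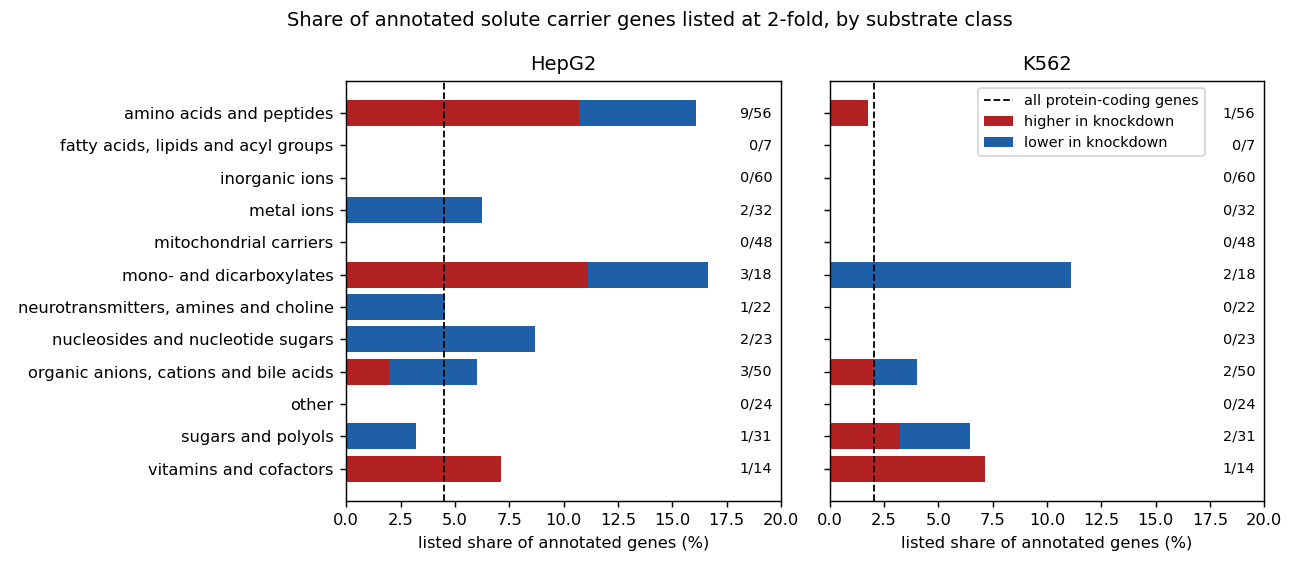
Share of annotated protein-coding solute carrier genes listed at 2-fold in HepG2 (left) and K562 (right), in percent, by substrate class. Red is higher and blue is lower in the knockdown, the dashed line is the share of all annotated protein-coding genes (4.52% and 2.06%), and the figures at the right give listed over annotated genes; 9 of 56 amino acid and peptide transporters were listed in HepG2 and 1 of 56 in K562.

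SLC7A11 is the transport subunit that exchanges extracellular cystine for glutamate and feeds glutathione synthesis. The authors' average for SLC7A11 was 349 in the HepG2 knockdown against 49.8 in the control. The knockdown value was 6.89-fold higher, rank 40 of the 775 higher genes. SLC38A2, a sodium-coupled carrier of small neutral amino acids that is induced when amino acids are scarce, averaged 2346 against 939. That was a 2.50-fold difference. SLC1A5, the main glutamine importer of many tumor cells, averaged 1174 against 578. Its fold of 2.03 lay just inside the 2-fold threshold.

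SLC6A9, a glycine transporter, averaged 253 against 94.6 in HepG2 and was 2.66-fold higher. SLC38A4, a neutral and cationic amino acid carrier of liver, averaged 176 against 62.5 and was 2.78-fold higher. SLC7A2, which imports arginine and other cationic amino acids, averaged 75.4 against 26.9, a 2.74-fold difference. These 6 genes, from 4 families, had larger averages from 75.4 to 2346.

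The 3 amino acid transporters that were lower in the HepG2 knockdown had folds of 4.77 to 13.2. SLC7A8, which exchanges neutral amino acids at the basolateral membrane and, like SLC7A11, pairs with the heavy chain SLC3A2, averaged 4.67 against 73.8. It retained 6.32% of the control value and was at rank 8 of the 634 lower genes. SLC6A15, a sodium-coupled carrier of branched-chain amino acids and proline, averaged 6.17 against 33.8. SLC16A10, which lets aromatic amino acids cross by facilitated diffusion, averaged 10 against 51.5. All 3 had knockdown averages at or under 10. So the light chains SLC7A11 and SLC7A8 lay at opposite ends of the members, while SLC3A2 itself was in neither table. The amino acid transporters SLC7A5, SLC7A1 and SLC38A1 were looked up too and were also in neither table.

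**Figure D2:**
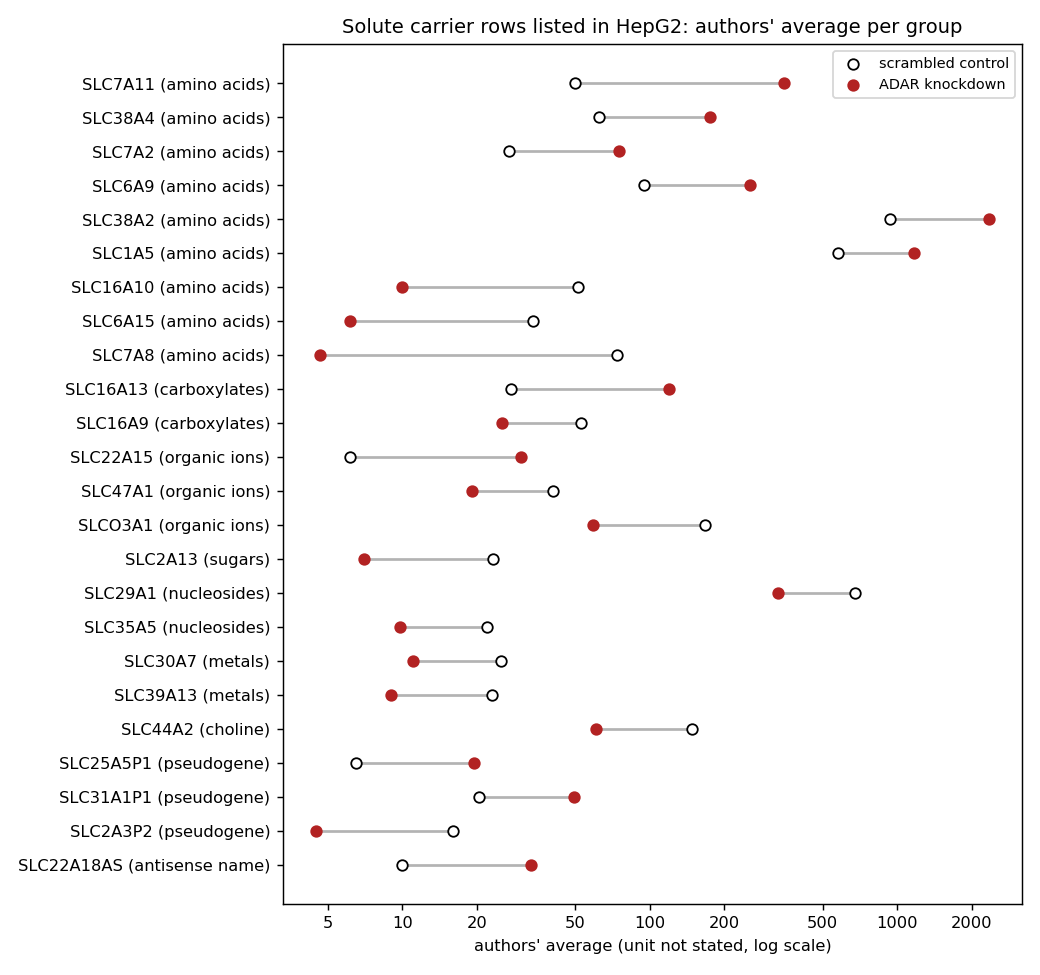
Authors' average (horizontal axis, log scale, unit not stated) of each of the 24 solute carrier members in HepG2, by substrate class. Open circles are the scrambled control and red circles the ADAR knockdown, with 1 value per group and no error; the amino acid carriers separate into 6 higher and 3 lower, and SLC7A8 has the widest gap (4.67 against 73.8).

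Among the carboxylate carriers of the SLC16 family the HepG2 rows went both ways. SLC16A13, a proton-linked monocarboxylate transporter family member expressed in liver, averaged 119 against 27.5 and was 4.22-fold higher. SLC16A9, a family member linked to carnitine and urate transport, averaged 25.4 against 52.6 and was 2.03-fold lower. The row deposited under LOC100133772 carries the identifier ENSG00000170190, which GENCODE names SLC16A5. It lies outside the rule, because its deposited symbol does not start with SLC, and was found after the values were seen. Its averages were 116 against 56.9 in HepG2, a 2.02-fold difference. With it, 4 of the 14 annotated SLC16 genes were listed in HepG2, 2 higher and 2 lower.

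Carriers of organic ions were 1 higher and 2 lower in HepG2. SLC22A15, of the family of organic cation and zwitterion transporters, averaged 30.1 against 6.14 and was 4.36-fold higher. SLC47A1, which extrudes organic cations in exchange for protons at the bile canaliculus and in kidney, averaged 19.2 against 40.7. SLCO3A1, an organic anion transporter of prostaglandins and thyroid hormone, averaged 59.1 against 168 and was 2.81-fold lower.

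All 6 remaining protein-coding members of HepG2 were lower in the knockdown, with folds from 2.04 to 3.04. SLC29A1, the equilibrative nucleoside transporter that also admits nucleoside drugs, averaged 329.5 against 674.5. The difference was 2.04-fold. SLC44A2, a choline transporter-like protein, averaged 60.8 against 149 and was 2.42-fold lower. SLC2A13, a proton-coupled importer of myo-inositol, averaged 7 against 23.3.

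Both listed zinc transporters of the secretory pathway were lower as well. SLC30A7, which loads zinc into the Golgi apparatus, averaged 11 against 25. SLC39A13, which releases zinc from secretory compartments and is mutated in a connective tissue disorder, averaged 9 against 23. SLC35A5, of the nucleotide sugar transporter family, averaged 9.75 against 22. The larger averages of these 3 genes were 22 to 25. With 1 sample per group the error of such low values is unknown.

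**Figure D3:**
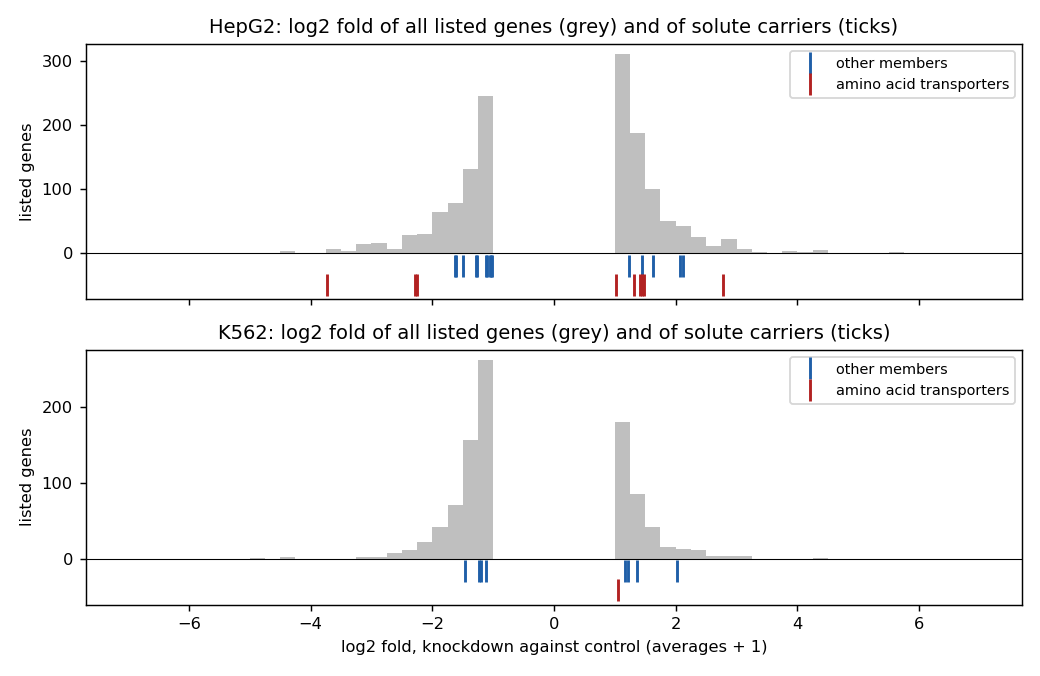
Distribution of log2 folds (knockdown against control, averages plus 1) over all listed genes in HepG2 (top, 1409 genes) and K562 (bottom, 942 genes), with a tick for each solute carrier. No gene lies between -1 and 1 because of the 2-fold threshold; amino acid transporters (red ticks) run from -3.72 to 2.79 in HepG2, and other members (blue ticks) run from -1.63 to 2.12 there.

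The size of folds among members was near that of the table. The higher members of HepG2 had a median log2 fold of 1.45, against 1.35 for all higher genes, and the lower members had -1.28, against -1.37 for all lower genes. The median over all 24 members was -1.03, against 1.05 over all listed genes. A median over values split at -1 and 1 takes its sign from the majority, so it repeats the count.

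Genes of amino acid supply around the transporters were nearly all higher when they were listed in HepG2. The lists hold known ATF4 targets whose values were already known from these data, so they are not independent support. Of 33 genes of amino acid synthesis and tRNA charging, 8 were listed, or 24.2% against 4.52% of all protein-coding genes, and all 8 were higher, against 55.5% of listed protein-coding genes; their log2 folds had a median of 1.58. ASNS, which makes asparagine, averaged 261 against 46.3 and was 5.54-fold higher. PSPH, which catalyses the last step of serine synthesis and was deposited as PSPHL, averaged 94.3 against 25.8. CARS, the cysteinyl-tRNA synthetase, averaged 170.3 against 52.8, and CTH, which makes cysteine from cystathionine, averaged 94.3 against 30.7.

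Of 14 regulators of the amino acid response, 11 were listed in HepG2, or 78.6% against the same 4.52%, and 10 were higher. The 4 with the largest folds were SESN2, ATF3, TRIB3 and DDIT3. SESN2, a stress-induced inhibitor of mTORC1, averaged 243 against 33.8, and ATF3, a transcription factor of the ATF family, averaged 53.6 against 7.3. TRIB3, a pseudokinase induced by ATF4, averaged 519 against 78.5 and was 6.55-fold higher. DDIT3, a stress-induced transcription factor, averaged 392 against 61.1. ATF4 itself, which was picked after seeing the data, averaged 771 against 327, a 2.35-fold difference. ATF5, also named afterwards, was the 1 lower member, at 2.01-fold. Of 13 genes of glutathione and cystine use, 2 were listed, or 15.4% against 4.52% of all protein-coding genes. CHAC1, which breaks down glutathione, averaged 199 against 8.5. GCLC, the catalytic subunit that starts glutathione synthesis, averaged 72 against 146. So the cystine importer SLC7A11 was higher while GCLC was 2.02-fold lower. Of 24 genes of glycolysis and glucose use, 2 were listed, or 8.33% against the same 4.52%. These were TXNIP at 4.55-fold higher and ENO3 at 7.27-fold lower. No member of the first 3 of these lists was in the K562 table, where 2.06% of all protein-coding genes were listed. At that share few or no members of such short lists would be listed, so no difference between the lines is read from this.

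In K562 fewer transporters were listed, and their folds were near those of the whole table. The higher members had a median log2 fold of 1.22, against 1.25 for all higher genes, and the lower members had -1.21, against -1.28 for all lower genes. Of the 9 members 5 stood higher and 4 stood lower in the knockdown, while 38.2% of all 942 listed genes were higher and 61.8% were lower. Among protein-coding members 4 of 7 were higher, against 29.3% of the 410 listed protein-coding genes. Of the 385 annotated carriers 8 were listed by identifier, or 2.08%, against 2.06% of all protein-coding genes. All 7 protein-coding members lay under 3-fold.

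SLC16A3, the lactate exporter of glycolytic cells, averaged 22.6 in the K562 knockdown against 64 in the control and was 2.75-fold lower. LDHA, which makes lactate from pyruvate, averaged 1365 against 3112 there and was 2.28-fold lower. It was the 1 listed gene of the 24 on the glycolysis list, or 4.17% against 2.06% of all protein-coding genes. SLC16A1 and SLC2A1 were looked up too and were listed in neither line. SLC37A1, an exchanger of phosphorylated sugar and phosphate in the endoplasmic reticulum, averaged 33.5 against 73.9. SLC22A18, an organic cation transporter-like gene of an imprinted region, averaged 6 against 15. SLC16A3, SLC37A1 and SLC22A18 were the 3 lower protein-coding members.

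SLC38A9, a lysosomal carrier that senses arginine for mTORC1, averaged 48.5 against 23 in K562. Its fold of 2.06 was the smallest of the K562 members, and it was the 1 listed amino acid transporter of that line. SLC46A2, related to the folate carrier, averaged 35 against 15. SLC10A5, an orphan of the bile acid transporter family whose row had no symbol, averaged 23.5 against 9.5. SLC2A13 averaged 19.7 against 7.

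**Figure D4:**
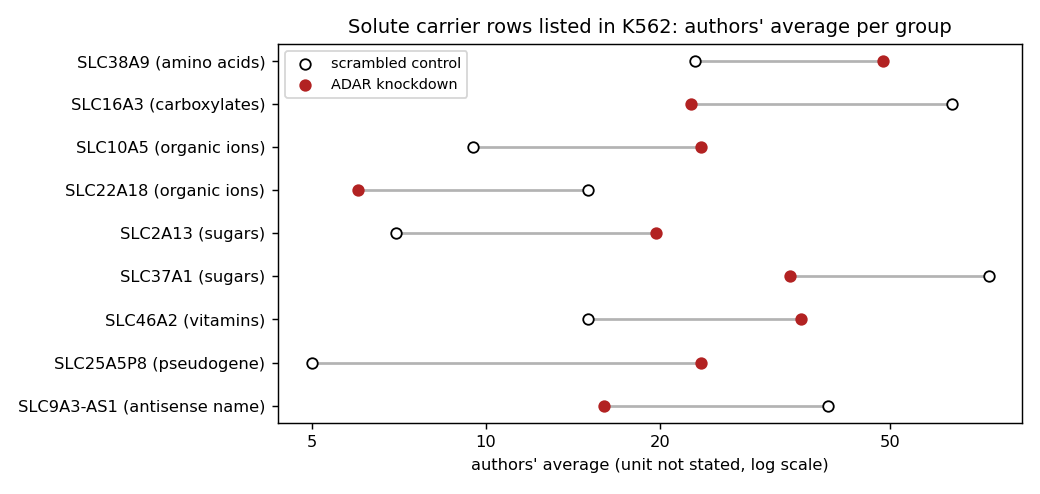
Authors' average (horizontal axis, log scale, unit not stated) of each of the 9 solute carrier members in K562. Open circles are the scrambled control and red circles the ADAR knockdown, with 1 value per group and no error; all averages lie between 5 and 73.9, and 5 members are higher and 4 lower in the knockdown.

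SLC2A13 was the 1 member in both tables, and it went in opposite directions. The myo-inositol carrier was 3.04-fold lower in the HepG2 knockdown and 2.58-fold higher in the K562 knockdown. SLC16A5, outside the rule, also went opposite ways, 2.02-fold higher in HepG2 and 2.11-fold lower in K562, where it averaged 18.8 against 40.8. Of the 94 genes listed in both lines, 68.1% went in opposite directions, so these 2 genes do as most shared genes did. Neither difference between lines was tested.

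The 4 pseudogene rows are processed copies of transporter genes, and their parents SLC25A5, SLC2A3 and SLC31A1 were in neither table. SLC25A5P1, a copy of the mitochondrial adenine nucleotide carrier SLC25A5, averaged 19.5 against 6.5 in HepG2. SLC25A5P8, another copy of that gene, averaged 23.5 against 5 in K562, a 4.08-fold difference. It was the 1 K562 member past 4-fold, a size that 3.82% of all listed K562 genes reached upward and 5.52% downward. SLC31A1P1, from the copper importer gene, averaged 49.5 against 20.5 in HepG2, and SLC2A3P2, from a neuronal glucose transporter gene, averaged 4.5 against 16.

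The first 60 coding bases of SLC25A5 and the aligned bases of both copies are shown because they tell how far a read could be told from the parent, with capitals at bases that differ from the parent, from GENCODE release 29 transcripts on GRCh38.
SLC25A5: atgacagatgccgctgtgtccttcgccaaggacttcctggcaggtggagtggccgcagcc
SLC25A5P1: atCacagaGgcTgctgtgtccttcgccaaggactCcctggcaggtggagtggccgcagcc
SLC25A5P8: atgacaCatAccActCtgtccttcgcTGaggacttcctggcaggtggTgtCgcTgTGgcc
SLC25A5P1 differs at 4 of these 60 bases and SLC25A5P8 at 11. Along the whole coding sequence the copies matched the parent at 93.4% and 91.1% of paired bases. SLC31A1P1 matched SLC31A1 at 95.9% and SLC2A3P2 matched SLC2A3 at 90.6%. No 76-base window of any of the 4 pseudogenes, the length of 1 read, occurred unaltered in a transcript of its parent. Whether reads with mismatches were placed on the copies was not tested.

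Members were also checked for sequence shared with genes on either strand, because strand-specific counting is not stated. Of the 32 members, 17 had no 76-base window in common with another annotated gene and 15 had at least 1. In 5 members the share was 5% or more. SLC46A2 shared 33.1% of its windows with SNX30 on the opposite strand, and SLC25A5P1 shared 33.2% with WBP2NL, the gene it overlaps. SLC1A5 shared 20.3% with an antisense gene, SLC9A3-AS1 shared 10.4% with SLC9A3, and SLC7A11 shared 7.44% with SLC7A11-AS1. None of these partners was listed in the table of its member, and no member overlapped another listed gene. SLC7A8, SLC6A15, SLC38A2, SLC16A13 and SLC2A13 shared no window.

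**Figure D5:**
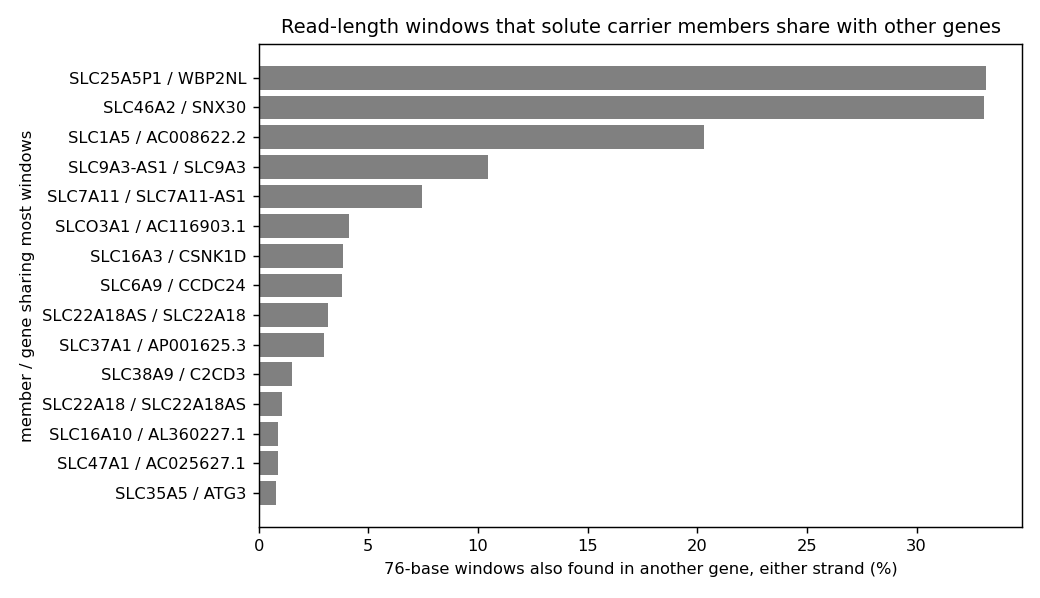
Percent of the 76-base windows of each member's annotated transcripts that also occur, on either strand, in a transcript of another gene, for the 15 members with at least 1 such window. Each label gives the member and the gene that shares most windows with it; SLC25A5P1 and SLC46A2 share 33.2% and 33.1%, and SLC1A5 shares 20.3%.

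The antisense-named rows overlap, on the opposite strand, the transporter genes they are named after. SLC22A18AS averaged 33 against 10 in HepG2 and was 3.09-fold higher; its partner SLC22A18 was not in that table. In K562 the partner was listed as lower and SLC22A18AS was not listed. The pair shared 56 windows, which is 3.15% of those of SLC22A18AS and 1.06% of those of SLC22A18. SLC9A3-AS1 averaged 16 against 39 in K562, while SLC9A3, a sodium-proton exchanger gene, was in neither table.

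Promoter sequences from RefSeq on GRCh38.p14, 300 bases around each gene start, were found for 19 of 28 protein-coding transporters, SLC16A5 and SLC52A3 included, with 37 promoters in all. The element TGATGNAA, bound by ATF4 with C/EBP proteins, was searched on both strands. It occurred in 1 of the 37 promoters and in 3.62% of all 35116. Members higher in the HepG2 knockdown had only 7 of these promoters, 1 with the element, and members lower there had 19, with 0. No promoter of a K562 member held it. The element TGACNNNGC, a core bound by NRF2, occurred in 5 of the 37 and in 13.3% of all; the 2 elements can overlap and were counted apart. The match to TGATGNAA, in 1 of the promoters annotated for SLC1A5, is shown because that gene was among the higher amino acid transporters, and it is printed with the element in capitals, at chr19:46784893-46784922 on the minus strand.
SLC1A5: gaggaagtggcTGATGCAAgctgtccaggg
A match describes letters in this window and is no sign of binding. SLC7A11 was not among the genes matched.

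SLC52A3, a riboflavin transporter deposited in HepG2 as C20ORF54, was also outside the rule for its symbol and was likewise picked after seeing the data. It averaged 31.5 against 8.5 and was 3.42-fold higher. With SLC52A3 and SLC16A5 added, 13 of 26 HepG2 rows were higher and 13 were lower, and in K562 5 of 10 were higher.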

How the data were processed

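Paired reads of 76 bases came from an Illumina GAIIx, with 2 technical replicates for each of 4 samples, per the labels' protocols. TopHat, SAMtools and hg19 are named in the submitters' processing notes; any version, counting method, strand setting or depth scaling is not given in the sources used here. The 2 deposited tables hold, per the file headers, an average per group, treated here as a signal of unstated unit; the deposited log2 fold is that of the averages plus 1, and the authors' signed fold is a score with the ratio itself, negative where the knockdown is lower. The depth per sample is unknown.

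Rows with a repeated symbol were reduced to that with the highest mean average. Gene names, types and overlaps came from GENCODE release 29 by identifier (1278 of 1413 HepG2 rows and 840 of 945 K562 rows matched). Substrate classes follow the carrier families, except for genes assigned singly, such as SLC16A10, placed with the amino acid transporters. Because the files use hg19, no coordinates are printed but those of a RefSeq promoter on GRCh38.p14. With 1 sample per group no test was run. Every member is named. Of other lists, up to 4 listed genes are named by size of fold. Further ones are named where the text says so or a comparison with a member needs them. Of the HepG2 potassium channel genes all 5 listed are named. The members and lists were chosen with earlier results of these data known. Alternatives were other thresholds, filters, pseudocounts, member sets and a 1.5-fold scaling. Counting was tested on simulated data. Python 3.11.15, numpy 2.4.6, pandas 2.3.3 and matplotlib 3.10.9 were used.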

Additional observations from a re-analysis of the deposited data

Results flagged for a closer look

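SLC2A13 went in opposite directions in the 2 cell lines. Its log2 fold in K562 minus that in HepG2 was 2.97, from -1.60 in HepG2 and 1.37 in K562. SLC16A5, deposited under another symbol, differed by -2.09 in the same subtraction, from 1.01 in HepG2 and -1.08 in K562. Of the 94 genes listed in both lines, 68.1% went in opposite directions, as these did. SLC2A13 averaged only 7 against 23.3 in HepG2 and 19.7 against 7 in K562, and the error of such low values is unknown. The SLC16A5 folds of 2.02 in HepG2 and 2.11 in K562 lay just past the 2-fold threshold. Neither difference was tested, since each line had 1 sample per group.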

How the results depend on the processing

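The counts of higher members rest on the 2-fold threshold, on low averages and on a scaling that cannot be checked. Against 11 higher members in HepG2 and 5 in K562, a 3-fold threshold left 4 and 1 higher and a 4-fold threshold 3 and 1. The medians of log2 folds went from -1.03 and 1.04 to -1.60 and 2.03, and to -0.089 and 2.03. At these thresholds the HepG2 medians rest on 9 and 6 members. The K562 value is each time that of 1 member, the pseudogene SLC25A5P8. Keeping rows whose larger average was at least 50 left 7 and 0 higher, with medians of 1.02 and -1.29, both of the opposite sign. These medians rest on 13 members in HepG2 and 2 in K562. Keeping rows at or above the lower quartile reversed the HepG2 median to 1.13. Knockdown averages divided by 1.5 left 4 and 1 higher past 2-fold, with medians of -1.64 and -1.68; multiplied by 1.5 they left 5 of 13 lower members in HepG2 and 0 of 4 in K562, with medians of 1.95 and 1.79. Past 2-fold under both scalings were 9 HepG2 members, SLC7A11, SLC22A15, SLC16A13, SLC2A13, SLC16A10, SLC6A15, SLC7A8, SLC2A3P2 and SLC22A18AS, and 1 K562 member, SLC25A5P8. A pseudocount of 0.1 gave medians of -1.04 and 1.07, and protein-coding members alone gave -1.04 in HepG2. With the rows named as solute carriers by identifier, added after seeing the data, the medians fell between the directions at -0.0046 and -0.016, and 2 genes were in both tables instead of 1. Listed folds have a gap around 0 and members are few, so a few rows can set the sign of a median. The higher HepG2 members had a median larger average of 119 and the lower members 40.7. The filter at the lower quartile left 10 higher and 8 lower HepG2 members. What causes the sign changes was not tested. Every row as deposited, and matching by identifier, gave the same counts. No paired analysis was possible because the result comes from no test and each group has 1 sample.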

Other observations

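Other membrane transport proteins were listed in small numbers, several of them at shares near that of all protein-coding genes, and differences between these groups were not tested. Of 45 ABC transporters, the ATP-driven exporters, 4 were listed in HepG2, or 8.89% against 4.52% of all protein-coding genes, and all 4 were higher in the knockdown: ABCG1, a cholesterol exporter, averaged 27.5 against 3.75, ABCA3 averaged 109 against 38, ABCC3, an exporter of conjugated organic anions, averaged 161 against 68.5, and ABCG2 averaged 35.5 against 15.5. No ABC transporter was in the K562 table, where 2.06% of all protein-coding genes were listed. Of 97 potassium channel genes 5 were listed in HepG2, or 5.15%, a share near the 4.52%. Of these KCNE2 at 2 against 29.5, KCNJ6 at 2 against 18.5, KCNMB4 at 6 against 23.8 and KCNK3 at 26.5 against 59.5 were lower, and KCNH5 was higher at 109 against 32.4. In K562 3 were listed, or 3.09% against 2.06%, and these 3 were lower. The water channels AQP11 and AQP1, 2 of 13 aquaporin genes or 15.4%, were listed in K562, both higher, at 32.5 against 11 and 16 against 6. Of 61 pump ATPase genes, 2 or 3.28%, ATP8B3 and ATP6V0A2, were listed in HepG2 and were lower, at 6.75 against 15 and 17 against 40. Of 84 other channel genes 3, or 3.57%, were listed in HepG2, with CLIC4 and CLCN4 higher and ANO2 lower. Of 23 other major facilitator-like genes only MFSD6 was listed, in K562, or 4.35% against 2.06%. It was lower there at 5.83 against 15.8. Of all listed genes 55.0% were higher in HepG2 and 38.2% in K562.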
